A study of Mus musculus with 20 samples.

Results

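Clec4f, Timd4, Vsig4, Cd5l, Marco and Folr2 are genes by which the resident macrophages of the mouse liver, the Kupffer cells, are recognised. They were found by their gene names, and all 6 are among the 54532 genes counted in a bulk RNA-Sequencing series of colorectal liver metastasis (CRLM). The tissue series ran from the liver of saline-treated mice (con, day 0, 2 libraries) through low-content tumor tissue (Lt, 9 dpi, days post-injection, 2 libraries) and medium-content tumor tissue (Mt3 at 9 dpi, Mt2 and Mt1 at 11 dpi, 2 libraries each) to high-content tumor tissue (Ht, 12 dpi, 3 libraries). L-con was tumor-free tissue away from the tumor in a 12 dpi liver (1 library). F4/80+ and CD11b+ cells were taken from Mt2-type metastases at 11 dpi with antibody-coated microbeads (3 libraries each). All mice were WT C57BL/6, and all groups but con had received 1000000 MC38 cells, a syngeneic colon adenocarcinoma line, through the spleen and portal vein.

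Kupffer cells sit in the sinusoids, the capillaries of the liver, where they take up microbes, dying cells and blood-borne particles. They are seeded before birth and renew themselves, and their identity is kept by signals from neighbouring endothelial cells, stellate cells and hepatocytes, acting through factors such as LXR-alpha. When they are lost, monocytes can enter the niche and acquire the same genes, Clec4f sooner than Timd4. Clec4f encodes a C-type lectin that binds galactose-containing glycans and is, in mice, almost exclusive to Kupffer cells. Timd4 encodes TIM-4, a receptor for phosphatidylserine on dying cells. Vsig4 is the complement receptor CRIg, which captures particles coated with C3 fragments. Cd5l is a secreted scavenger protein, also known as AIM. Marco is a class A scavenger receptor for bacteria and particles. Folr2, the beta folate receptor, is also made by resident macrophages outside the liver.

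In the annotation of the deposited tables, which match GRCm38, all 6 are protein-coding genes. Clec4f lies on the minus strand of chromosome 6 from 83644542 to 83656187, and Timd4 on the plus strand of chromosome 11 from 46810800 to 46844332. Vsig4 is on the minus strand of the X chromosome (96247203 to 96293438) and Cd5l on the plus strand of chromosome 3 (87357881 to 87371073). Marco is on the minus strand of chromosome 1 (120474538 to 120505024) and Folr2 on the minus strand of chromosome 7 (101839988 to 101857194).

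RefSeq promoters (GRCm38.p6, 250 bases before to 50 after the start) were matched for 6 of 6 genes. The sequence before the start is shown for the 4 genes whose tissue levels moved most closely together, read 5′ to 3′ along the gene: chr6:83656188-83656366 (minus strand), chr11:46810549-46810798 (plus), chrX:96293439-96293688 (minus) and chr3:87357631-87357880 (plus). Capitals mark the letters of 5 short motifs searched on both strands: GGAAGT for ETS factors such as PU.1, TGGGAA for RBPJ, CAGACA for SMAD factors, TGCTGA for MAF factors and AGGTCA for nuclear receptors.
Clec4f: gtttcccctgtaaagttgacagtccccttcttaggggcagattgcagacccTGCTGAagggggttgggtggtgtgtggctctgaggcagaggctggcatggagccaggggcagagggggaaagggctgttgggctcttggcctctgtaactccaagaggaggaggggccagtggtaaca
Timd4: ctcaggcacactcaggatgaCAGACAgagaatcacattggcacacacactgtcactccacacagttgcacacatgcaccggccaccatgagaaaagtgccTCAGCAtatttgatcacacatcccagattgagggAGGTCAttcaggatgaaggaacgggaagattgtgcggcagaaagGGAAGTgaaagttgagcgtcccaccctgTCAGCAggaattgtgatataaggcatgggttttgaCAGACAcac
Vsig4: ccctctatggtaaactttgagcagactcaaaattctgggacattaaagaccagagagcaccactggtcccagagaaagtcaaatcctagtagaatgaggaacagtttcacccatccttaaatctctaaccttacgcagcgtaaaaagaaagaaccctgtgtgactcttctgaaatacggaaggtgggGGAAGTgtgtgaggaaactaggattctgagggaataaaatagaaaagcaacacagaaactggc
Cd5l: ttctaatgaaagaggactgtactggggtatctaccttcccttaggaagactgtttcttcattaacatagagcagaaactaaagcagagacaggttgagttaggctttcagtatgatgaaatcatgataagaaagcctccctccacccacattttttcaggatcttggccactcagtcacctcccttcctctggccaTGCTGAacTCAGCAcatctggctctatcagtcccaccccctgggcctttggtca
The 6 genes have 7 windows, since Folr2 has 2, and a match in either of these counted for the gene. Over the full windows, TGCTGA or its complement was present for 5 of 6 genes, against 19.5% of all 32851 promoter windows, and GGAAGT for 4 of 6, against 23.8%. TGGGAA was present for 2 of 6 (25.6% of all windows), AGGTCA for 2 of 6 (16.3%) and CAGACA for 1 of 6 (21%). In Clec4f one GGAAGT overlaps a TGGGAA, in the part of the window that is not printed because it lies inside the deposited gene. These are matches of letters, with no measurement of binding.

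Each library held between 16032085 and 20548370 counted reads. Because Ht_1 and Ht_3 are described in the Methods as identical, they were summed to 1 sample (Ht_1+3). By a chi-square of their counts they differed as much as Ht_1 and Ht_2 did (30.3 and 29.1 per degree of freedom) and more than Ht_2 and Ht_3 did (13.2), in each case by more than sampling noise. CD11b+_3 stood apart from the other CD11b+ libraries (152 and 199 per degree of freedom, against 19.1 between CD11b+_1 and CD11b+_2) and had the highest sum of 7 neutrophil markers (3650 CPM, against 1255 and 1268). The tissue is labelled male and the sorted cells carry no sex label, whereas the Methods describe female mice. Xist lay between 0 and 0.210 CPM in the tissue and between 322 and 1035 CPM in the sorted cells, and the Y-linked Ddx3y at 14.9 to 129 CPM in the tissue and at 0 counts in all 6 sorted libraries. The tissue and the sorted cells thus differed in sex-linked RNA, are not known to share mice and stand in separate count tables, and in any comparison between them these differences cannot be told apart from the sort.

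Levels below are counts per 1000000 counted reads (CPM) on 1 TMM scale over all 19 samples, in the order of the replicate numbers. Clec4f stood at 198 and 161 CPM in con, 337 in L-con and 299 and 262 in Lt. In the medium-content groups it was at 230 and 293 CPM in Mt3, 253 and 104 in Mt2, and 334 and 89.9 in Mt1, and in Ht it was at 26.0 (Ht_1+3) and 45.6 CPM (Ht_2). The Lt libraries lay above con, both Ht samples lay below every other tissue library, and Mt2_2 and Mt1_2 lay between con and Ht. In the next 3 genes, too, Ht was lowest and Mt2_2 and Mt1_2 were the lowest of the Mt libraries.

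In con there were 10.3 and 8.10 CPM of Timd4, and in L-con 25.0. Lt had 20.5 and 16.9 CPM, Mt3 16.8 and 21.6, Mt2 20.04 and 6.89, Mt1 20.4 and 7.11, and the Ht samples 1.70 and 4.47. Con held 56.9 and 37.7 CPM of Vsig4, and L-con 103. Lt had 67.7 and 68.0 CPM, Mt3 61.3 and 85.9, Mt2 67.7 and 29.2, Mt1 86.3 and 26.7, and the Ht samples 11.2 and 16.9. Cd5l began at 164 and 119 CPM in con and stood at 422 in L-con. Lt had 312 and 314 CPM, Mt3 250 and 305, Mt2 278 and 129, Mt1 402 and 122, and the Ht samples 32.1 and 51.9. In each of these genes the Ht samples were again the lowest of the tissue, L-con was above con, and the second library of Mt2 and of Mt1 was well below the first.

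Marco had a wider spread. Its con libraries were at 15.2 and 6.98 CPM, L-con at 65.8, Lt at 60.5 and 59.1, Mt3 at 15.0 and 46.9, Mt2 at 67.4 and 30.3, Mt1 at 142 and 27.6, and Ht at 3.56 and 11.3. The Mt1 libraries differed 5.14-fold, and Ht_2 overlapped con. Folr2 did not follow the others: con was at 2.47 and 4.22 CPM, L-con at 6.13, Lt at 10.7 and 6.94, Mt3 at 5.75 and 10.8, Mt2 at 10.7 and 6.17, Mt1 at 10.6 and 4.68, and Ht at 7.26 and 4.91. Its Ht samples lay within the range of the medium-content groups.

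**Figure D1:**
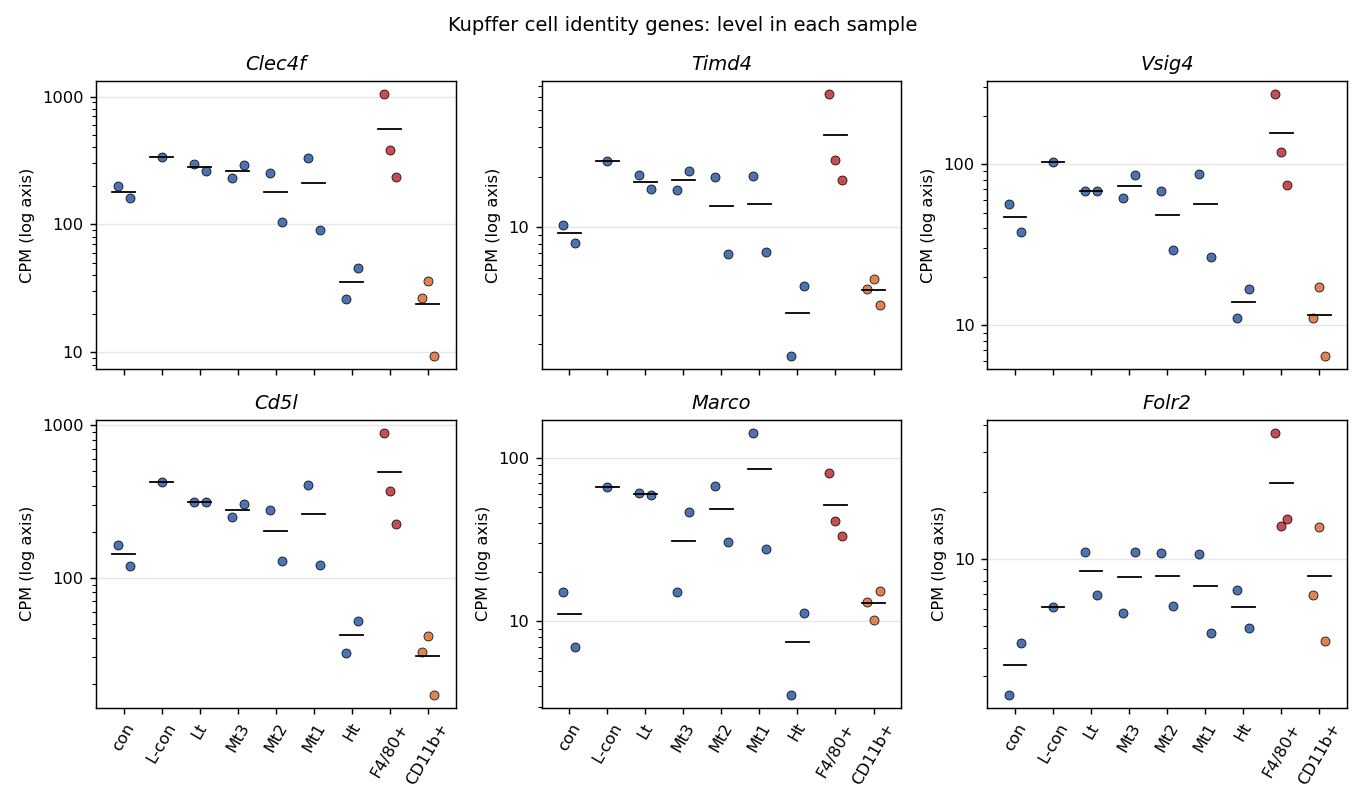
Level of each gene in CPM (log axis) in each tissue sample (blue), in F4/80+ cells (red) and in CD11b+ cells (orange), with bars at the group means. Clec4f, Timd4, Vsig4 and Cd5l show the same shape, with Ht and CD11b+ lowest and F4/80+ highest by mean. Without F4/80+_1 the F4/80+ means of these genes lie below L-con. The Ht samples of Folr2, at 4.91 and 7.26 CPM, overlap the medium-content groups.

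Among the 13 tissue samples, the pairwise Pearson correlations of log2(CPM + 1) were between 0.974 and 0.987 for Clec4f, Timd4, Vsig4 and Cd5l. Marco correlated with these 4 at 0.765 to 0.856, Folr2 with these 4 at 0.328 to 0.432, and Marco with Folr2 at 0.594. These values are a description, since the points share library composition and the tissue libraries differ in their content of liver. With Alb, the albumin gene of hepatocytes, r was 0.921 for Clec4f, 0.881 for Vsig4, 0.835 for Cd5l, 0.834 for Timd4, 0.492 for Marco and 0.040 for Folr2. With Adgre1, which encodes F4/80, it was -0.351 for Clec4f and 0.363 for Folr2.

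The patterns most like each gene were taken as the 3 highest correlations over these 13 samples among 17186 other genes. For Clec4f they were Itih3 (0.990), Vsig4 (0.987) and Adgre4 (0.980). For Timd4 they were Cd5l, Vsig4 and Clec4f (0.983 to 0.974), for Cd5l Timd4, Vsig4 and Clec4f (0.983 to 0.978), and for Vsig4 Clec4f, Timd4 and Adgre4 (0.987 to 0.979). None of the other 5 genes was among the 3 closest to Marco, which were Ifi27l2b (0.916), Fam167a (0.908) and Raver2 (0.906), or to Folr2, which were Pak6 (0.854), Cxcl14 (0.851) and Pdia4 (0.842).

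To compare the genes with each other, levels were also divided by the deposited gene length (FPKM). In con, Clec4f (72.7 ± 10.8 FPKM, SD, n = 2) and Cd5l (69.6 ± 15.6) were the highest, followed by Vsig4 (31.9 ± 9.17), Marco (5.76 ± 3.02), Timd4 (4.24 ± 0.728) and Folr2 (2.17 ± 0.802), beside 12.3 ± 3.93 FPKM for Adgre1. In Ht, Cd5l (20.6 ± 6.89, n = 2) and Clec4f (14.5 ± 5.61) were the highest, ahead of Vsig4 (9.46 ± 2.73), Folr2 (3.93 ± 1.08), Marco (3.86 ± 2.85) and Timd4 (1.42 ± 0.899), and Adgre1 was at 42.3 ± 5.86. In con Adgre1 was thus below Vsig4, Cd5l and Clec4f per length, and in Ht above all 6.

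From normal liver to low-content tumor, every gene had a log2 fold change above 0 and both Lt libraries above both con libraries, but none was called changed. A gene was called where edgeR's quasi-likelihood test gave an adjusted p not above 0.05 (Benjamini-Hochberg, over the 17187 genes of the tissue fit) and the log2 fold change was at least 1 in size. Marco had the largest estimate (2.43 ± 0.90, SE, adjusted p = 0.110, edgeR), followed by Folr2 (1.40 ± 0.53, adjusted p = 0.119), Cd5l (1.15 ± 0.55, 0.203), Timd4 (1.02 ± 0.63, 0.315), Clec4f (0.65 ± 0.59, 0.486) and Vsig4 (0.52 ± 0.55, 0.541). Of all genes tested, 12.4% were called higher, and 37.2% had Lt above con without overlap. The unadjusted p was under 0.05 for 2 of the 6 genes, Marco and Folr2, and for 4917 of the 17187 genes in either direction. DESeq2 called 1 of the 6, Marco, and 2364 of the 17187 genes higher.

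Other macrophage genes did pass this test. Of 12 general macrophage markers 9 were higher, with a median log2 fold change of 1.74 (0.10 over all genes), and of 8 monocyte markers 7 were higher, with a median of 4.72. In a wider list of 16 genes described for Kupffer cells the median was 0.42 and 1 gene was higher, Siglec1 (1.68), the sialic acid-binding receptor CD169, which other macrophages also carry. Of 8 transcription factors linked to Kupffer cell identity, Spi1 (1.82), Irf8 (1.69) and Rbpj (1.17, not called with total-count scaling) were higher. Adgre1 had a log2 fold change of 0.98 ± 0.29 (adjusted p = 0.0565, edgeR). Hepatocyte markers had a median of -0.67, with 0 of 12 called by edgeR or DESeq2 and 0 with an unadjusted p under 0.05 in edgeR.

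L-con, a single library with no test, was above both con libraries in each of the 6 genes, as it was in 38.3% of all genes tested. In all but Folr2 it was also above both Lt libraries, as were 34.8% of all genes. Adgre1 was at 91.4 CPM in L-con, against 48.8 and 30.8 in con. The summed level of 12 hepatocyte markers was 158672 CPM in L-con and 206637 and 176520 CPM in con.

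From Lt to the average of the 3 medium-content groups (Mt), 0 of the 6 genes were called by edgeR or by DESeq2, and 0 had an unadjusted p under 0.05. The log2 fold changes were all below 0, from -0.14 (Folr2) to -0.40 (Clec4f), with SEs of 0.41 to 0.67. Over all genes 0% were called lower by edgeR, though 3282 had an unadjusted p under 0.05 and DESeq2 called 108 lower and 132 higher. Within Mt, the libraries that were low in the 4 closely related genes, Mt2_2 and Mt1_2, were also those with the least hepatocyte RNA: the hepatocyte markers summed to 23338 and 22966 CPM there, against 97363 CPM in Mt2_1, 88428 in Mt1_1, and 132408 and 99295 in Mt3. Adgre1 was at 124 and 121 CPM in Mt2_2 and Mt1_2, at 101 and 138 CPM in Mt2_1 and Mt1_1, and lowest in Mt3, at 75.9 and 91.5 CPM.

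From medium- to high-content tumor, 5 of the 6 genes fell, and by similar amounts. The log2 fold change was -2.59 ± 0.57 for Clec4f (adjusted p = 0.0161, edgeR), -2.55 ± 0.52 for Cd5l (0.0126), -2.33 ± 0.59 for Timd4 (0.0248), -2.07 ± 0.51 for Vsig4 (0.0228) and -2.78 ± 0.82 for Marco (0.0407). Each of these had both Ht samples below all 6 Mt libraries. Folr2 was at -0.41 ± 0.41 (adjusted p = 0.479), with overlapping groups, and at 0.19 with total-count scaling, which kept the 5 calls. Of all genes tested, 13.4% were called lower in Ht and 22.6% lay below Mt without overlap. The calls over all genes numbered 257 higher and 2306 lower with TMM, but 2585 higher and 1773 lower with total-count scaling, the median over all genes then being 0.55 and not 0.00. The 5 calls need both Ht samples, since leaving out 1 leaves Ht without a spread of its own. For such fits only effect sizes are given. Without Ht_1+3 the log2 fold changes of the 5 ran from -1.77 (Timd4) to -2.24 (Cd5l). Without Ht_2 they ran from -2.39 (Vsig4) to -3.82 (Marco). In a fit of only the groups compared, Timd4 (adjusted p = 0.0538, edgeR) and Marco (0.0707) lost their calls. Marco alone lost its call without Mt3_2, Mt2_1 or Mt1_1 (adjusted p of 0.0557 to 0.0673, edgeR).

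In a bulk sample, fewer Kupffer cells and less RNA per Kupffer cell cannot be told apart. Hepatocyte markers fell more than these genes: 12 of 12 were lower, with a median log2 fold change of -4.23, and their sum was 3162 CPM in Ht_1+3 and 4591 in Ht_2. Of 7 markers of the sinusoidal endothelium, 4 were lower (Clec4g -3.93, Gpr182 -2.81, Stab2 -2.59 and Oit3 -2.31) and 1 was higher (Stab1, 1.15, a scavenger receptor that macrophages also make). General macrophage markers did not move with the 6 genes: 0 of 12 were called by edgeR or DESeq2, 3 had an unadjusted p under 0.05, and the median was 0.47. With total-count scaling 4 of 12 were called higher, with a median of 0.99, beside 0.55 over all genes. Adgre1 was at 0.35 ± 0.23 (adjusted p = 0.275, edgeR). The part of the loss of liver tissue in these falls was not tested.

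The direction of a ratio depends on its reference gene. Per read of Alb, which itself fell, both Ht samples were above both con libraries in all 6 genes and in 95.3% of all genes tested. Per read of Adgre1, which rose, they were below con in 5 of the 6 and in 69.6% of all genes, while Folr2 overlapped (5.07 and 13.7 reads per 100 of Adgre1 in con, 5.88 and 3.26 in Ht). Per 100 reads of Adgre1, Clec4f had 407 and 522 reads in con, and 369 in L-con. Lt had 501 and 270, Mt3 303 and 321, Mt2 250 and 83.6, Mt1 241 and 74.5, and the Ht samples 21.1 and 30.4. Ht was thus the lowest and con among the highest on this scale, and Mt2_2 and Mt1_2 were low again. Per 1000 reads of Alb, Clec4f had 1.48 and 1.42 reads in con, 2.90 and 5.12 in Lt, between 2.69 and 8.46 in the Mt libraries, and 15.2 and 17.4 in Ht, the reverse order. The ratios of Cd5l went from 337 and 388 reads per 100 reads of Adgre1 in con to 26.0 and 34.5 in Ht, and from 1.23 and 1.05 reads per 1000 reads of Alb in con to 18.8 and 19.8 in Ht.

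**Figure D2:**
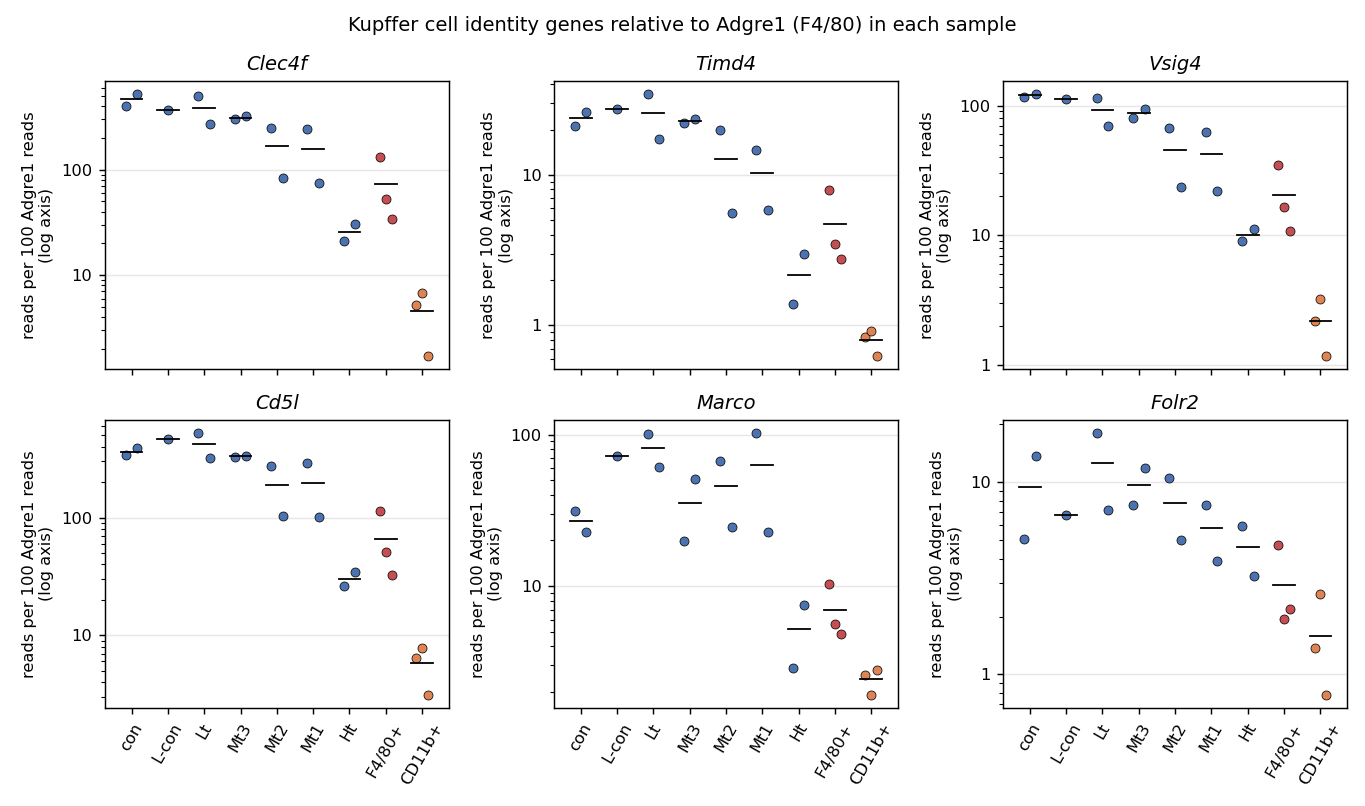
Reads of each gene per 100 reads of Adgre1 (log axis), with 1 point per sample (tissue blue, F4/80+ red, CD11b+ orange) and bars at the group means. For Clec4f, both Ht samples (21.1 and 30.4) lie below the other tissue samples, and the CD11b+ libraries (1.71 to 6.77) below the F4/80+ libraries (34.1 to 133).

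The wider Kupffer list went mostly the same way from Mt to Ht: 11 of 16 were lower and 0 higher, with a median log2 fold change of -2.17. Kcna2 (-3.96), a voltage-gated potassium channel, Paqr9 (-3.85) and C6 (-3.39), a component of complement, had the largest changes, and C6 and Paqr9 are also made by hepatocytes. Cd207, or langerin (-2.69), Clec1b, the lectin CLEC-2 (-2.61), Cxcl13 (-2.51), the iron exporter Slc40a1 (-2.15) and the haemoglobin scavenger receptor Cd163 (-1.62) were also lower. Siglec1 (0.70), Ptgs1 (0.17), Itga9 (-0.33), Il18bp (-1.07) and Spic (-1.43) were not called. With total-count scaling 10 of the 16 were lower, Tmem26 having lost its call, and 1 was higher, with a median of -1.55.

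Among the transcription factors 1 of 8 was lower, Nr1h3 (-2.63), which encodes LXR-alpha and is also made by hepatocytes, and none rose, with a median of 0.39 (2 were called higher with total-count scaling). Of 11 signals and receptors of the Kupffer cell niche, Gdf2 (-2.50), which encodes BMP9, and Bmp10 (-1.47, not called with total-count scaling) were lower. The macrophage growth factors Csf1 (0.70) and Il34 (0.73) and the Notch ligand Dll4 (-0.42) were not called, though 3 genes of this list were called higher with total-count scaling.

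**Figure D3:**
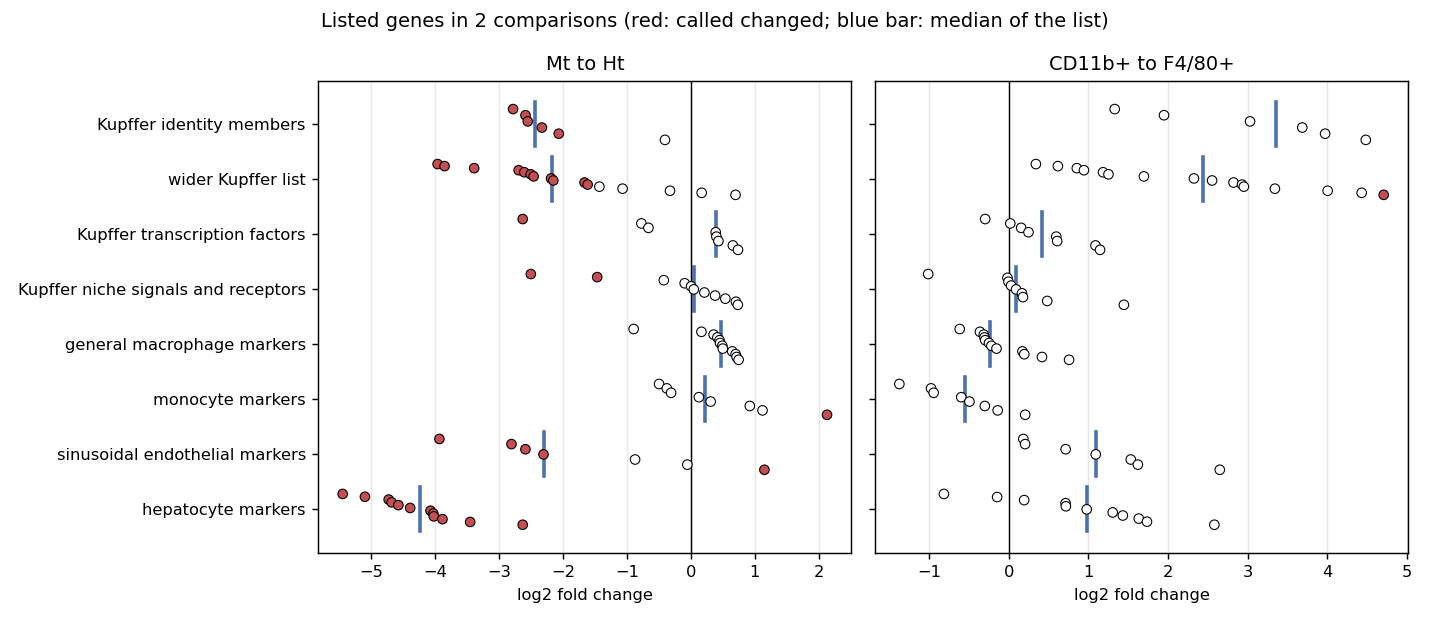
Log2 fold changes from Mt to Ht (left) and from CD11b+ to F4/80+ cells (right) for the genes of 8 lists, with 1 point per gene, called genes in red and a blue bar at the median. On the left, the medians of the Kupffer cell identity genes (-2.44) and the wider list (-2.17) lie between those of the hepatocyte (-4.23) and the general macrophage markers (0.47), and on the right the Kupffer cell identity genes have the highest median (3.36).

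Over the whole series, from con to Ht, 3 of the 6 genes fell: Clec4f (-2.34 ± 0.62, adjusted p = 0.00864, edgeR), Cd5l (-1.77 ± 0.56, 0.0193) and Vsig4 (-1.77 ± 0.56, 0.0203). Timd4 was at -1.62 ± 0.65 (adjusted p = 0.0527), and in these 4 genes both Ht samples were below both con libraries. Marco was at -0.61 ± 0.88 (adjusted p = 0.561) and Folr2 at 0.85 ± 0.52 (adjusted p = 0.182). Of all genes 24.1% were called lower, and 40.4% lay lower without overlap. Scaling mattered here: with total counts the all-gene median was 1.27 in place of 0.09, with 8819 genes called higher and 2250 lower in place of 4437 and 4139. It left Clec4f lower (-1.16, adjusted p = 0.0421, edgeR), called Folr2 higher (2.03, 0.00293) and put Vsig4 at -0.58, Cd5l at -0.59 and Marco at 0.58. Without con_1 the count was 1 (Clec4f, adjusted p = 0.0349), and without Ht_1+3 it was 0, with Clec4f at an adjusted p of 0.0683, while without Ht_2 Timd4 was called too (0.0319). This comparison shares its Ht samples with that from Mt and its con samples with that to Lt.

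Against this, Adgre1 rose (1.76 ± 0.30, adjusted p = 0.000882, edgeR), as did 10 of 12 general macrophage markers, whose median was 2.66, and 8 of 8 monocyte markers, whose median was 5.15. In the wider Kupffer list 10 of 16 were lower, led by Paqr9 (-4.66), Kcna2 (-4.38) and C6 (-4.32), and 2 were higher, Siglec1 (2.9998) and Ptgs1 (1.30). With total-count scaling Cd163, Fcna and Cxcl13 lost their calls, as did Id3 and Dll4 below. The transcription factors divided: Spi1 (2.74), Rbpj (2.70), Irf8 (2.13) and Zeb2 (2.01) were higher, while Nr1h3 (-3.81) and Id3 (-1.60) were lower. Of the niche list 5 were higher, led by Csf1 (4.48), Tgfbr2 (2.29) and Tgfb1 (2.06), and 3 were lower, Gdf2 (-3.33), Bmp10 (-2.41) and Dll4 (-1.33). Hepatocyte markers were lower in 12 of 12, with a median of -5.85.

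**Figure D4:**
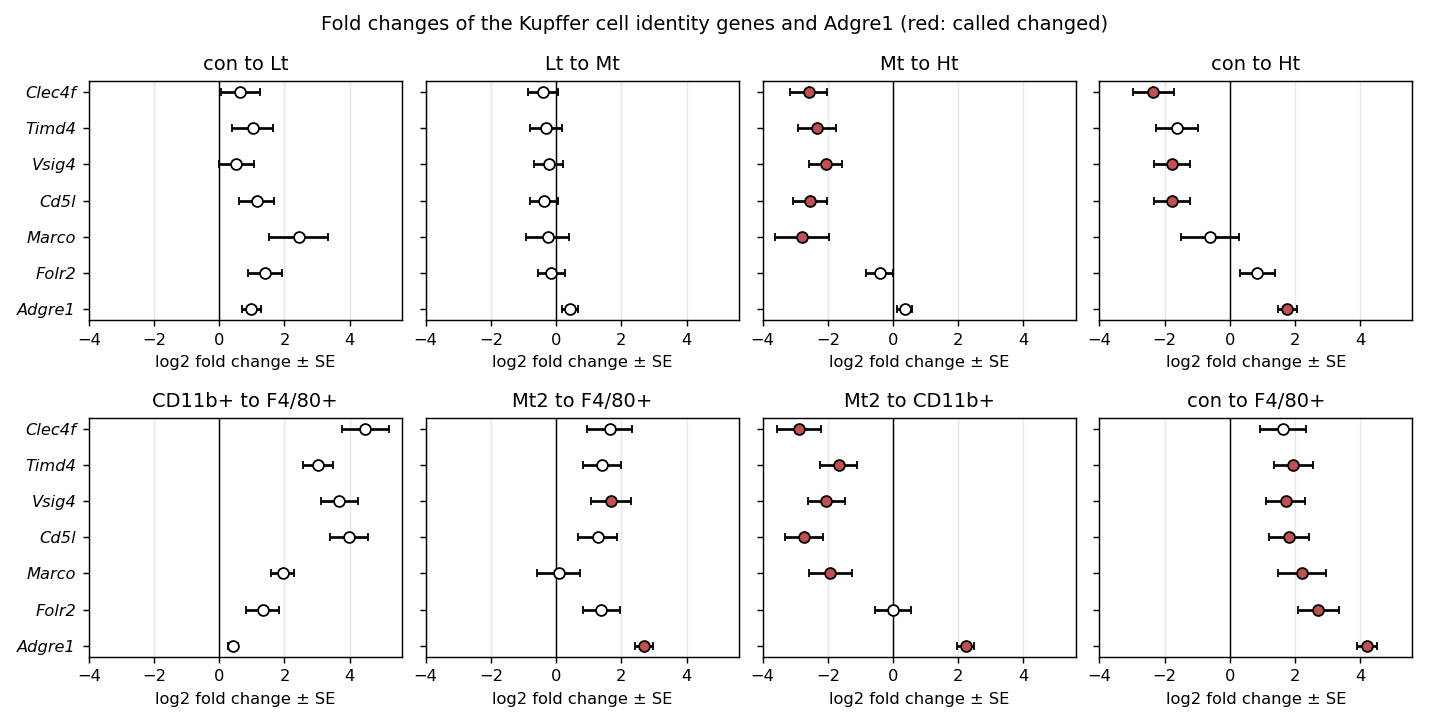
Log2 fold change with its SE for the 6 genes and Adgre1 in 8 comparisons, with red points for genes called changed. From Mt to Ht the first 5 genes lie between -2.78 and -2.07 while Adgre1 lies at 0.35, and from CD11b+ to F4/80+ cells all 6 lie above 0 with none called.

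In the sorted cells, the 6 genes were read in 2 populations that both carried the RNA of both sorting antigens. Adgre1 was at 784, 725 and 691 CPM in F4/80+ cells and at 507, 534 and 547 CPM in CD11b+ cells, and Itgam, which encodes CD11b, at 244, 254 and 295 CPM and at 350, 366 and 439 CPM. Clec4f was at 1044, 384 and 236 CPM in F4/80+ cells and at 26.6, 36.1 and 9.34 CPM in CD11b+ cells. Cd5l was at 889, 368 and 225 CPM against 32.6, 41.7 and 17.1 CPM. F4/80+_1 was the highest library in both genes, and every F4/80+ library was above every CD11b+ library.

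Vsig4 was at 272, 119 and 74.3 CPM in F4/80+ cells and at 11.1, 17.3 and 6.44 CPM in CD11b+ cells. Timd4 was at 62.5, 25.2 and 19.2 CPM against 4.27, 4.91 and 3.42 CPM, and Marco at 80.6, 40.8 and 33.1 CPM against 13.1, 10.2 and 15.4 CPM. These also did not overlap. Folr2 was at 36.8, 13.999 and 15.1 CPM in F4/80+ cells and at 6.93, 13.96 and 4.29 CPM in CD11b+ cells, where CD11b+_2 and F4/80+_2 were nearly equal and, scaled over the sorted libraries alone, overlapped.

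The log2 fold change from CD11b+ to F4/80+ cells was 4.48 ± 0.71 for Clec4f (adjusted p = 0.0652, edgeR), 3.97 ± 0.58 for Cd5l (0.0580), 3.68 ± 0.56 for Vsig4 (0.0615), 3.03 ± 0.46 for Timd4 (0.0615), 1.95 ± 0.35 for Marco (0.0864) and 1.33 ± 0.51 for Folr2 (0.456). By the planned edgeR fit of the 6 sorted libraries, 0 of 6 were called. In that fit 0.00701% of 14263 genes were called higher, and 11.5% lay higher without overlap, as 5 of the 6 did here. All 6 had an unadjusted p under 0.05, as had 1503 of the 14263 genes in either direction. DESeq2 called 5 of the 6, and 133 of all genes higher. Without CD11b+_3, the library that stood apart, edgeR called 3, Clec4f (4.10, adjusted p = 0.0371), Cd5l (3.69, 0.0366) and Vsig4 (3.40, 0.0413). It then called 40 of all genes higher. A fit of all 19 samples, added after the data were seen, called 4, with Clec4f at 4.53 (adjusted p = 0.00559, edgeR), Cd5l at 4.02 (0.00502), Vsig4 at 3.73 (0.00569) and Timd4 at 3.08 (0.0141). That fit called 95 of 18407 genes higher.

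General macrophage markers showed no such gap between the sorted populations, with a median log2 fold change of -0.23, 0 of 12 called by edgeR or DESeq2, and 1 with an unadjusted p under 0.05. In the wider Kupffer list all 16 estimates were above 0, with a median of 2.44, and 1 was called by edgeR, Kcna2 (4.71), while DESeq2 called 10 higher. C6 (4.43), Paqr9 (4.002), Fcna (3.34), Cd207 (2.95), Cd163 (2.93) and Clec1b (2.82) had large estimates that were not called. The transcription factors ranged from -0.29 (Spi1) to 1.15 (Id3), with a median of 0.42 and 7 of 8 above 0. None of them was called by edgeR or DESeq2, and 3 had an unadjusted p under 0.05 in edgeR (4 in DESeq2). Markers of other cells had medians of -3.70 (7 neutrophil), 1.09 (7 sinusoidal endothelial), 1.22 (6 general endothelial), 0.91 (4 stellate cell and fibroblast) and 0.98 (11 hepatocyte). In these lists edgeR called 0, while 7, 4, 6, 4 and 5 genes, in the same order, had an unadjusted p under 0.05. DESeq2 called 3 neutrophil markers lower, and 3 sinusoidal, 2 general endothelial, 0 stellate and 2 hepatocyte markers higher. The general endothelial markers summed to 176 to 261 CPM in F4/80+ and 118 to 126 CPM in CD11b+ cells, and the hepatocyte markers to 227 to 332 CPM and 109 to 311 CPM. The part of these cells in the gap was not tested.

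Relative to Adgre1, every F4/80+ library was above every CD11b+ library in 5 of the 6 genes and in 1.68% of the 14263 genes tested. In Folr2 they overlapped, with 4.69, 1.93 and 2.18 reads per 100 reads of Adgre1 in F4/80+ cells and 1.37, 2.61 and 0.785 in CD11b+ cells. Per 100 reads of Adgre1, Clec4f had 133, 53.0 and 34.1 reads in F4/80+ cells and 5.25, 6.77 and 1.71 in CD11b+ cells. Con, with 407 and 522, was above all of these. Cd5l had means of 65.6 ± 42.4 (SD, n = 3) in F4/80+ and 5.79 ± 2.40 in CD11b+ cells, against 362 ± 36.3 (n = 2) in con, and Timd4 had means of 4.74 ± 2.82 and 0.795 ± 0.152 against 23.8 ± 3.63.

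The proportions among the 6 genes were compared by their reads per 100 reads of Clec4f. Clec4f had the largest estimate between the sorted populations, so that this choice of reference itself puts the other genes higher in CD11b+ cells. Per 100 reads of Clec4f, Timd4 had 5.05 to 9.79 reads in tissue, 5.99 to 8.13 in F4/80+ cells and 13.6 to 36.6 in CD11b+ cells. Vsig4 had 22.7 to 43.0, 26.0 to 31.5 and 41.7 to 68.9 reads in the same order, and Cd5l 74.3 to 135, 85.2 to 95.7 and 115 to 183. Marco (4.35 to 42.6, 7.72 to 14.1 and 28.3 to 165) and Folr2 (1.25 to 27.9, 3.52 to 6.40 and 26.0 to 46.0) varied more in tissue.

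Compared with Mt2 tissue, the F4/80+ cells were called higher for 1 gene, Vsig4 (1.68 ± 0.60, adjusted p = 0.0287, edgeR, joint fit of 18407 genes). Clec4f (1.64 ± 0.70, adjusted p = 0.0607), Timd4 (1.41 ± 0.58, 0.0531), Folr2 (1.39 ± 0.57, 0.0507) and Cd5l (1.28 ± 0.60, 0.0831) lay just outside the threshold, and Marco was at 0.08 ± 0.66. Of all genes 17.2% were called higher. This count was 5 by DESeq2 and with total-count scaling, and 0 without Mt2_2 or without F4/80+_1, where Vsig4 was at 1.24 and 1.00, while it was 3 without Mt2_1 or F4/80+_2 and 5 without F4/80+_3. Adgre1 was called higher (2.70 ± 0.27, adjusted p = 1.52e-06, edgeR), as were 12 of 12 general macrophage markers, with a median of 3.21. In the wider list 11 of 16 were higher, led by Siglec1 (3.37), Spic (2.37) and Cd163 (2.16), and 2 were lower, Paqr9 (-3.52) and C6 (-1.67). Of the neutrophil markers 5 of 7 were higher and 1 lower (median 3.48), and 12 of 12 hepatocyte (-8.65), 4 of 7 general endothelial (-1.59) and 7 of 7 stellate cell and fibroblast markers (-4.22) were lower. Their part was not tested.

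The CD11b+ cells were lower than Mt2 in 5 of the 6 genes. The log2 fold changes were -2.89 ± 0.67 for Clec4f (adjusted p = 0.00209, edgeR), -2.74 ± 0.58 for Cd5l (0.00103), -2.05 ± 0.57 for Vsig4 (0.00701), -1.92 ± 0.66 for Marco (0.0234) and -1.66 ± 0.57 for Timd4 (0.0223), while Folr2 was at 0.01 ± 0.55. Of all genes 26.3% were called lower. The count was 2 without Mt2_1 (Clec4f and Cd5l), and 3 without CD11b+_1, where Timd4 and Marco were lost. Marco was also lost without CD11b+_2, and Timd4 without CD11b+_3. In the same cells Adgre1 was higher than in Mt2 (2.23 ± 0.26, adjusted p = 5.88e-06, edgeR), and of the wider list 7 were lower and 3 higher. Markers of other cells moved as well: 6 of 7 neutrophil markers were higher (median 6.30), and 12 of 12 hepatocyte (-9.67), 5 of 7 general endothelial (-3.11) and 7 of 7 stellate cell and fibroblast markers (-4.67) were lower. Their part in the falls was not tested. Both comparisons share the Mt2 libraries.

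Against normal liver, the F4/80+ cells were higher in 5 of the 6 genes: Folr2 (2.71 ± 0.63, adjusted p = 0.00158, edgeR), Marco (2.22 ± 0.74, 0.0167), Timd4 (1.95 ± 0.61, 0.0114), Cd5l (1.80 ± 0.61, 0.0182) and Vsig4 (1.71 ± 0.60, 0.0221). Clec4f was at 1.63 ± 0.70 (adjusted p = 0.0538). Of all genes 28.2% were called higher. Adgre1 was 4.20 ± 0.29 higher on the log2 scale and the 12 general macrophage markers had a median of 5.82, beside -10.09 for 12 hepatocyte and 5.78 for 7 neutrophil markers. Without con_2 the count was 1 (Folr2), without F4/80+_1 it was also 1 (Folr2), without con_1 it was 3, and without F4/80+_2 or F4/80+_3 all 6 were called. With total-count scaling all 6 were called too, 7748 genes were called higher and 3339 lower (5197 and 4647 with TMM), and the median of all genes was 0.97 in place of 0.24.

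Ordered by mean level, F4/80+ cells came first and L-con second for Clec4f, Timd4, Vsig4 and Cd5l, and Ht and CD11b+ cells came last, with con just above them (in Clec4f, Mt2). The first place rested on F4/80+_1: without it the F4/80+ means were 310 CPM for Clec4f, 22.2 for Timd4, 96.8 for Vsig4 and 296 for Cd5l, all below L-con. Neighbours in this order overlapped, except L-con above the next group, con (in Clec4f, Mt2) above the last 2 groups, and, in Cd5l, Lt above Mt3. For Marco the order began with Mt1 (84.8 CPM), L-con (65.8) and Lt (59.8) and ended with CD11b+ cells (12.9), con (11.1) and Ht (7.44), and L-con above Lt was the only neighbouring pair without overlap. For Folr2, F4/80+ cells (21.95 CPM) were above all other means, con (3.35) was below, and the 7 groups between, from 8.84 to 6.08 CPM, overlapped their neighbours.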

How the data were processed

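Bulk RNA-Sequencing libraries were made from TRIzol-extracted RNA with the NEBNext Ultra RNA kit. The submitters' processing notes name HISAT2 2.0.5, featureCounts 1.5.0-p3 and GRCm38/mm10. The authors deposited raw counts of reads per gene, without normalization, in 1 table for the 14 libraries of tissue and 1 for the 6 of sorted cells. Replicates were not pooled, and 0 columns of per-sample values were left unmapped. The strand setting of the counting is not given in the sources used here. The sorted-cell table names no genes and was matched by gene identifier, for all 54532 genes.

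Groups came from the sample labels. Nothing says whether libraries of 1 group came from separate mice beyond the Methods' 2 livers per tissue group, so p-values measure the spread between these samples, which in the sorted cells may be technical. Ht_1 and Ht_3 were summed. In R 4.3.3, edgeR 4.0.16 (TMM, filterByExpr, quasi-likelihood F test, Benjamini-Hochberg) was fitted to the tissue (13 samples, 17187 genes), the sorted cells (6 samples, 14263 genes) and both (19 samples, 18407 genes). Comparisons within 1 table used that table's fit, and comparisons between tables the fit of both. SEs came from the F statistic. Calls needed an adjusted p not above 0.05 and a log2 fold change of at least 1 in size, which is the study's threshold. FPKM used deposited gene lengths. Depths were 16032085 to 20548370 counts, so 3 counts equal 0.146 to 0.187 CPM, counting error only. The scripts were tested on simulated data.

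The 6 genes, the 13 gene lists and the tests were chosen with earlier results of these data known, so lists are described by counts and medians and not tested. Beyond the 6 genes, Adgre1, Itgam, Alb, Xist and Ddx3y, the genes named are the wider Kupffer genes and transcription factors by role, the 3 largest calls per direction in other lists, and the 3 highest correlations. Alb, Xist and Ddx3y were added to this rule, as were the niche genes and sinusoidal markers named beyond the largest 3. Alternatives were DESeq2 1.42.0, RLE and total-count scaling, other count filters, no fold threshold, other sample sets, Mt as 1 group, Ht as 3 libraries or without Ht_3, a replicate block and leaving out each library. Figures were drawn in matplotlib 3.10.9. 1 gene of the transcription factor list is not reported here.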

Additional observations from a re-analysis of the deposited data

Results flagged for a closer look

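The sorted populations moved apart from Mt2 tissue by different amounts in 4 genes, as tested by the difference between their log2 fold changes in the fit of all 19 samples. The difference between F4/80+ and CD11b+ cells, each relative to Mt2, was 4.53 for Clec4f (adjusted p = 0.00559, edgeR), 3.08 for Timd4 (0.0141), 3.73 for Vsig4 (0.00569) and 4.02 for Cd5l (0.00502). Because Mt2 cancels out of this difference, it is the F4/80+ against CD11b+ difference of that fit, which was added after the data were seen, and the fit of the sorted cells alone called none of the 4. Among the 6 Mt libraries no sample of the 6 genes lay far enough from the rest to stand out by Dixon's test.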

How the results depend on the processing

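The number of the 6 genes called depended on the settings. From con to Lt it was 0, but 1 with DESeq2, 2 with total-count scaling or only the groups compared, and 4 with no filter on low counts. Over all genes, 2133 of 17187 were called higher in the main fit and 2364 with DESeq2. There were 1998 with total-count scaling, 1767 of 14406 with only the groups compared, and 2769 of 29359 with no filter. From Mt to Ht it was 5, but 3 with only the groups compared, where 1846 of 16135 genes were called lower (2306 of 17187 in the main fit). A count with 1 Ht sample left out is not given, as Ht then has no spread of its own. From con to Ht it was 3, and from 0 to 4 with 1 sample left out. From CD11b+ to F4/80+ cells it was 0, but 5 with DESeq2 or with no filter, 4 in the fit of all samples, and from 0 to 3 with 1 library left out. Over all genes, 1 was called higher in the main fit, 133 with DESeq2, 90 with no filter and 95 in the fit of all samples. With 1 library left out it was from 0 to 40. From Mt2 to F4/80+ it was 1, but 5 with DESeq2, total-count scaling or no filter, 0 with only the groups compared, and from 0 to 5 with 1 library left out. From Mt2 to CD11b+ it was 5, and from 2 to 5 with 1 library left out, and from con to F4/80+ 5, and from 1 to 6. Over all genes, those called higher from Mt2 to F4/80+ numbered 3162 in the main fit, 3096 with DESeq2 and 3024 with total-count scaling. They numbered 3206 with no filter and 2965 with only the groups compared. Lt to Mt stayed at 0 of the 6 genes in all settings run. Where a sample was left out of a group of 2, the lone sample was assumed to vary like the other groups. The causes of these changes were not tested.

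Directions that reversed were all of estimates not called. With total-count scaling Lt to Mt became 0.042 for Vsig4, 0.0059 for Marco and 0.18 for Folr2, Mt to Ht 0.19 for Folr2, and con to Ht 0.58 for Marco. With a minimum of 10 counts in every library Folr2 from Mt2 to CD11b+ became -0.014. With 1 sample left out, reversals occurred for Folr2 from Lt to Mt (range -0.42 to 0.22, above 0 without Lt_1 or Mt1_2), Marco from con to Ht (-1.65 to 0.062, above 0 without con_1, and 0.012 without Ht_1+3), Marco from Mt2 to F4/80+ (-0.40 to 0.76, below 0 without Mt2_2 or F4/80+_1) and Folr2 from Mt2 to CD11b+ (-0.55 to 0.45, below 0 without Mt2_2 or CD11b+_2).

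Same-numbered samples are not stated to belong together, and their deviations correlated at -0.378 to 0.631. A replicate block gave 4 calls from CD11b+ to F4/80+, 5 from Mt2 to F4/80+ and 3 from Mt2 to CD11b+, and changed no other of these counts by over 1.5 times. Over all genes the block called 28 higher, 3182 higher and 4657 lower, in the same order. Exchanged numbers left 0 calls from con to Lt, 3 from con to Ht and 5 from Mt to Ht. The 3-count floor, 0.146 to 0.187 CPM, lay below the level of each of the 6 genes in every sample.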
